A study of Macaca mulatta with 23 samples.

Results

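The 5 genes described here, RBFOX3, SNAP25, ENO2, NEFL and CAMK2A, are widely used as marks of neurons, and their DNA methylation was measured in central amygdala tissue (the central nucleus) from 23 young rhesus monkeys (Macaca mulatta). Members are the positions of the deposited methylation table that lie inside 5 fixed intervals of the human build hg19, 1 per gene with short flanks, and there were 339 of them among 444312. RBFOX3 held 178 positions, CAMK2A 63, NEFL 45, SNAP25 35 and ENO2 18. The assay was reduced representation bisulfite sequencing, which cuts DNA with MspI and so favours CpG-rich fragments, with 1 library per monkey. The labels name no treatment: each monkey carries an anxious temperament score (-1.48 to 1.43), an age (1.1 to 2.13 years) and the hemisphere that was sampled, left in 11 monkeys and right in 12. Monkeys are named by hemisphere and a number within it.

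RBFOX3 encodes the nuclear splicing factor detected by the NeuN antibody. SNAP25 encodes a protein that takes part in the membrane fusion of synaptic vesicles, and ENO2 the enolase of neurons. NEFL encodes the light chain of neurofilaments, and CAMK2A the alpha subunit of the calcium/calmodulin-dependent kinase II of excitatory synapses. A CpG-rich start of a gene is usually free of methylation whether the gene is active or not, while gene bodies are often methylated. In bulk tissue a level is an average over all cells. A partial level can arise where neurons and glia carry opposite states, where both alleles differ, or where cells of 1 type vary, and these cannot be told apart in the levels alone. Since the samples are whole tissue, a different share of neurons and a different level within neurons cannot be told apart either. The table holds DNA levels only, so the cell types were not checked against expressed markers.

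The read depth behind a level is unknown, and so no interval for a single value can be given. Left 3 and right 9 were the least complete libraries. Left 3 had no value for 49.7% of all positions and right 9 for 21.2%, while the median library lacked 2.83%. Left 4 followed with 18.3%, right 4 with 15.7% and right 12 with 14.2%. Within the 5 genes they had 172 and 272 of the 339 positions. At the partially methylated positions of these genes, 48.8% of the values of right 9 were exactly 0 or 100%, against 14.7% in left 3 and at most 7.02% in the others. The correlations between genes, the partial levels per gene and the hemisphere values are given with and without left 3 and right 9.

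Together the 5 genes had shares of methylated and unmethylated positions close to those of the whole table, but the genes differed from each other. A position was called low where its mean over monkeys was under 20%, high where it was over 80% and partial in between. Of the 339 positions 60.5% were low, 20.9% partial and 18.6% high, beside 60.9%, 18% and 21.1% of the whole table. NEFL was low at 45 of 45 positions. SNAP25 was low at 30 of 35 and ENO2 at 14 of 18, with 4 partial and none high. CAMK2A was mostly high, at 36 of 63 positions, with 22 low and 5 partial. RBFOX3 had the most partial positions of the 5 genes, 60 of 178 (33.7%), beside 94 low and 24 high.

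**Figure D1:**
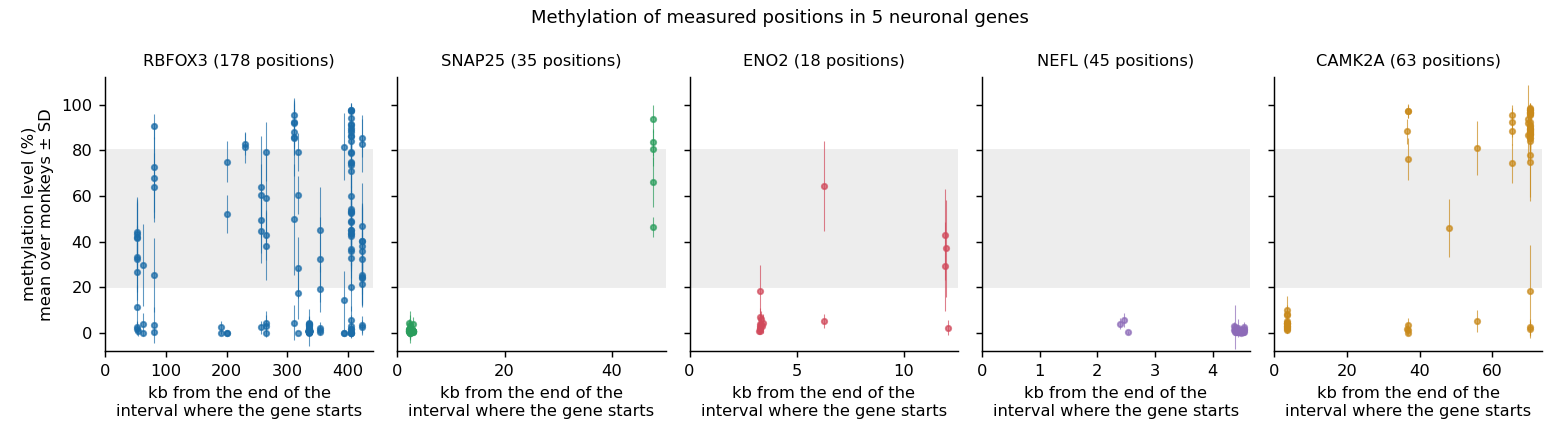
Mean methylation level (percent, points) with its SD over monkeys (lines) at each measured position, against the distance in kb from the end of the gene's interval where the gene starts, 1 panel per gene. Grey marks 20% to 80%. All NEFL positions and the leftmost clusters of SNAP25, ENO2 and CAMK2A lie under 20%, RBFOX3 has no measured position near its start, and its 60 partial positions are spread along the gene.

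The ends where the genes start were almost free of methylation in the 4 genes where they were measured. They were taken as the 6 kb of each interval on the side where the gene begins, and each position was centred on its mean over monkeys before averaging. SNAP25 had 30 positions there (chromosome 20, 10198165 to 10198956), with a level of 1.26% ± 0.841 (SD, n = 23), and 0.433% in the lowest and 3.1% in the highest monkey. NEFL had its 45 positions there (chromosome 8, 24813458 to 24815612), at 1.41% ± 0.932 (SD, n = 23). Its highest monkey was left 3 at 4.91%, which had values at 4 of the 42 positions from 24813458 to 24813624 and at 0 of the other 3. ENO2 had 12 positions (chromosome 12, 7023263 to 7023409) at 4.52% ± 1.36 (SD, n = 23). CAMK2A had 14 (chromosome 5, 149669327 to 149669434) at 4.39% ± 1.32 (SD, n = 23), from 2% to 7.29% over monkeys. The highest mean of any single position in these windows was 18.3%, at chromosome 12, 7023270 in ENO2. So no start window of 6 kb held a partial position, and the monkeys differed there by a few percentage points. For ENO2 this depends on the cut, since its partial position 7026279, at 64.3%, lay just outside at 6.28 kb. For SNAP25 and CAMK2A the window lay below the rest of the gene in 23 of 23 monkeys, and for ENO2 in 22, right 9 being the exception.

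For RBFOX3 no position fell within the 6 kb where the gene starts, and the nearest measured one lay 53.1 kb from that end of the interval. The gene did hold a dense unmethylated stretch far inside it, a run on chromosome 17 (77179646 to 77179887) of 58 positions. Its level was 1.14% ± 0.547 (SD, n = 23), with 0.581% in the lowest and 2.38% in the highest monkey. A run here is a stretch of 3 or more positions, each within 200 bp of the next, and its level is the plain mean of the values a monkey has there. Exons, introns and alternative starts are not named, since no annotation of that build was at hand.

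Of the other 12 runs of RBFOX3, 10 averaged between 24% and 76%, and those from 77161455 and 77452690 averaged 16% and 9.57%. A run mean in this range can come from averaging low and high positions. The run from 77122987, at 24%, had position means of 14.4%, 81.6%, 0 and 0. The largest run, 42 positions from 77111576 to 77111880 on chromosome 17, averaged 55.8% ± 5.2 (SD, n = 23). Within it the position means ran from 0 to 97.7%, so positions of high, partial and low level lay next to each other. Whether the monkeys carry a CpG at each of these positions of the human build was not tested. In this run the monkeys ran from 48.7% to 71.6%. The top value was that of left 3, which had 11 of the 42 positions, and the next, 69.5%, that of left 4, which had 13. The run from 77092717 to 77092835 held 14 positions and averaged 35.7% ± 5.39 (SD, n = 23), with 19.7% in right 7, which had 10 of the 14 positions, and 43.5% in left 1. Another, of 10 positions from 77462796 to 77462910, averaged 27.5% ± 10.6 (SD, n = 23). There right 9, with 6 of the 10 positions, was lowest at 1.67%, the median monkey stood at 24.9%, and left 6 was highest at 50.5%. Its SD ranked at the 84.5th percentile of 15443 partial runs of the table, while those of the runs of 42 and 14 positions ranked at the 41.5th and 43.6th. The run nearest to 50%, 7 positions from 77435200 to 77435288, averaged 44.8% ± 10.6 (SD, n = 19), and its lowest monkey, right 7 at 10%, had 2 of the 7 positions.

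**Figure D2:**
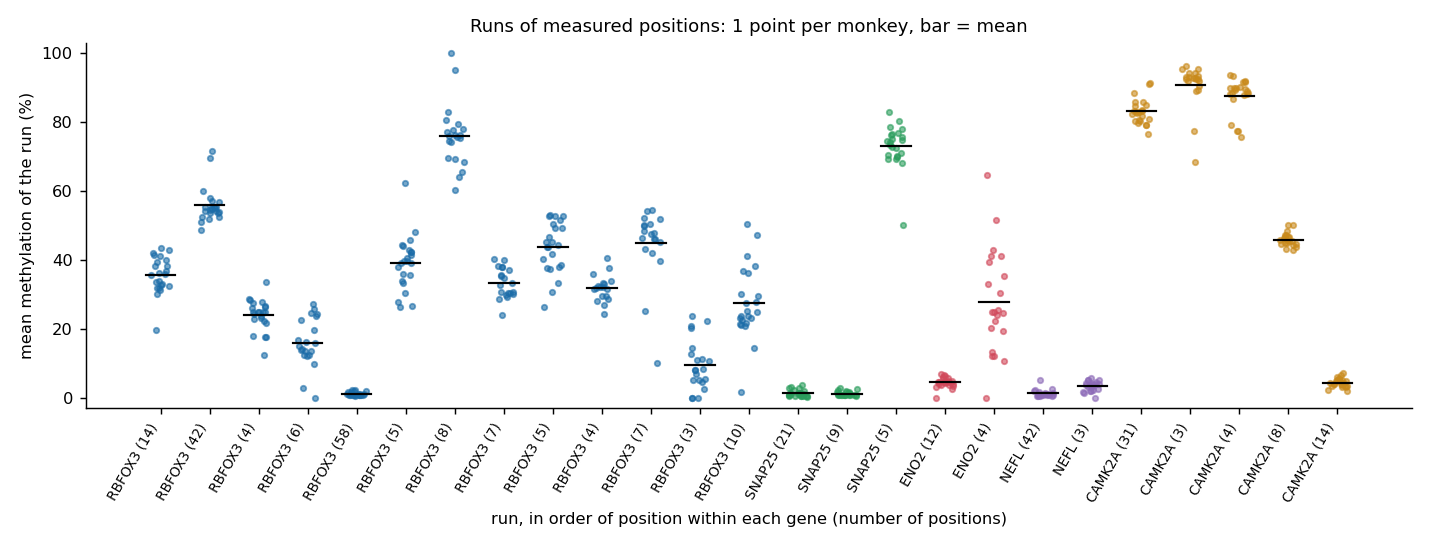
Mean methylation of each run (percent) in each monkey (points), with the mean over monkeys (bar), for the 25 runs of the 5 genes in order of position within each gene. The number of positions in a run is in brackets. The dense runs at the starts sit near 0 with little spread, the ENO2 run of 4 positions spreads from 0 to 64.5%, and the RBFOX3 runs centre between 1.14% and 76%.

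The partial positions of RBFOX3 did not share a level. With values in at least 20 monkeys there were 51, from 20.2% to 79.3% with a median of 44% and quartiles of 35.9% and 56.6%. Of these, 17 lay between 40% and 50%, 10 between 30% and 40%, 7 under 30% and 17 at 50% or more, 8 of them at 70% or more. Over the whole table the partial positions had a median of 55% and quartiles of 36.3% and 70.1%. At partial positions the median SD over monkeys was 13.1 points in RBFOX3 and 13.7 in the table. The position of RBFOX3 with the largest SD, chromosome 17, 77205180, averaged 49.8% ± 24.4 (SD, n = 19).

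Among the 5 genes, ENO2 had the highest median SD over monkeys at its partial positions, 19.9 points, although single RBFOX3 positions had larger SDs than any in ENO2. A run of 4 positions near the far end of its interval, on chromosome 12 from 7031930 to 7032097, averaged 27.9% ± 14.9 (SD, n = 22), and left 3 had no value there. Its SD ranked at the 95.4th percentile of the partial runs of the table. At 7031943 the lowest monkey was right 9 at 0 and the highest left 4 at 83%, with a mean of 43.1% ± 20.1 (SD, n = 22). At 7031984, the most variable position of the gene, the mean was 37% ± 21.2 (SD, n = 22), with right 9 at 0, right 11 at 5% and left 4 at 92%. At 7031930 it was 29.2% ± 19.6 (SD, n = 22), again with right 9 at 0 and left 4, at 75%, the highest. The run's other position, 7032097, was low in every monkey, with a mean of 2.27%. The 3 variable positions rose and fell together over monkeys, with r between 0.903 and 0.927 over 22 monkeys and between 0.899 and 0.916 without left 3 and right 9. They lie within 54 bp of each other. The other partial position of ENO2, 7026279, lies over 5 kb away and averaged 64.3% ± 19.8 (SD, n = 21). It correlated with the 3 at r between 0.513 and 0.651 over 20 monkeys, and between 0.408 and 0.591 over 19 without those libraries.

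The body of SNAP25 was measured at 5 positions, on chromosome 20 from 10243690 to 10243753. With each position centred on its mean over monkeys, their level was 74.2% ± 3.9 (SD, n = 23), with 68% in right 8 and 82.8% in right 11. As the plain mean of a run it was 73% ± 6.31 (SD, n = 23), and right 1, with 1 of the 5 positions, was lowest at 50%. The position means spanned 46.5% to 93.9% within this stretch, and the most variable position was 10243728 with an SD of 10.9 points. In CAMK2A the largest run, 31 positions on chromosome 5 from 149602612 to 149602818, averaged 83.1% ± 3.63 (SD, n = 23), and the runs of 3 and 4 positions beside it averaged 90.8% and 87.6%. A run of 8 positions from 149636146 to 149636357 averaged 45.9% ± 1.93 (SD, n = 21), yet 7 of its 8 positions were low or high, and its middle value came from averaging both kinds. The positions of NEFL and CAMK2A with the largest SD were 24813613 (2.77% ± 9.71, n = 22) and 149602627 (77.9% ± 20.1, n = 21). Right 9 was the highest monkey at the former, with 46%, and the lowest at the latter, with 0.

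Many positions came in pairs 1 bp apart, as the cytosines on both strands of a CpG lie, and these pairs show how repeatable a level is. The strand is not named in the table. There were 113 such pairs in the 5 genes, and in 10 of them (8.85%) the means differed by more than 30 points, beside 7.49% of 116411 pairs in the table. In 9 of these 10 the lower position was itself low. An example is RBFOX3 at 77111879 and 77111880, with 1.9% and 73.5%. Another is the ENO2 pair at 7026278 and 7026279, with 5.09% and 64.3%.

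**Figure D3:**
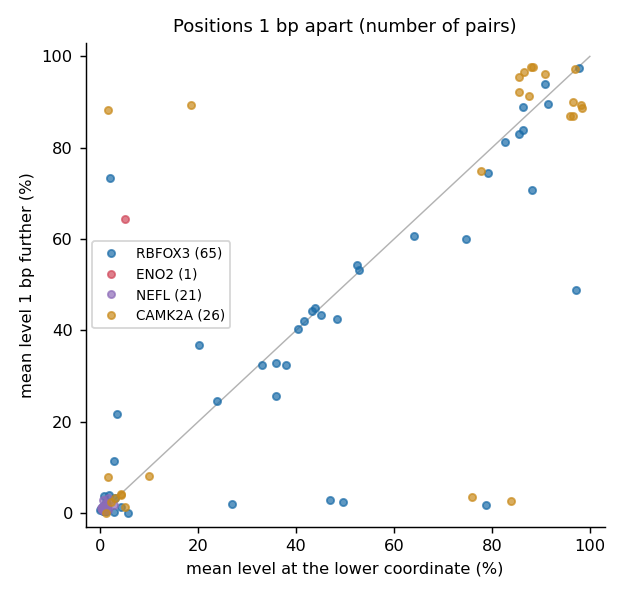
Mean methylation (percent) of positions 1 bp apart: the lower coordinate on the horizontal axis, the next base on the vertical axis, 1 point per pair, coloured by gene with the number of pairs in brackets. Most of the 113 pairs lie near the diagonal and 10 differ by more than 30 points. Many of those near the diagonal, among them all 21 of NEFL, are low at both positions.

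Where both positions of a pair were partial, their means were close but their differences between monkeys were weakly shared. In RBFOX3 there were 17 such pairs, with a median difference in mean of 1.86 points. Over monkeys the median r between both positions was 0.184, beside 0.309 for 9599 pairs of the table outside the genes. The spread of the difference within a pair corresponds to an error of 10.3 points (median SD) for a single position. This takes the errors at both positions as equal and independent, which was not tested. The median SD over monkeys at these positions was 11.9 points. These values and the median r of 0.184 include left 3 and right 9. The runs differed in how far both positions of a pair varied together. In the run from 77462796 to 77462910 all 3 partial pairs had r between 0.737 and 0.813, and a median of 0.758 without left 3 and right 9. In the run of 42 positions the median over 9 pairs was 0.0956, and in that of 14 positions it was -0.39 over 4 pairs, and -0.0101 without left 3 and right 9. So both positions of a pair rose and fell together over monkeys in the run of 10 positions, while in the runs of 42 and 14 positions r was above 0 in 5 of 9 and in 1 of 4 pairs. In CAMK2A the large run showed an offset between the positions of its pairs. Up to 149602661 the first of the pair was higher in 6 of 6 pairs, by 2.95 to 9.76 points, and from 149602667 on the second was higher in 7 of 7, by 3.65 to 9.96 points, leaving out pairs that differ by more than 30.

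To ask whether partial levels varied together over monkeys, each gene's partial positions with values in at least 20 monkeys were averaged per monkey, each centred on its own mean. RBFOX3 (51 positions), ENO2 (4) and CAMK2A (3) had enough of them, SNAP25 had 2 and NEFL 0. These positions are not all separate sites. In CAMK2A 149602627 and 149602628 lie 1 bp apart, and in ENO2 7031930, 7031943 and 7031984 lie within 54 bp. ENO2 7026279 and RBFOX3 77092717, 77111576, 77111594 and 77111880 belong to pairs 1 bp apart whose means differ by more than 30 points. RBFOX3 stood at 47% ± 3.38 (SD, n = 23), from 42.2% in right 9 over a median of 46% to 58.2% in left 4. ENO2 stood at 43.4% ± 17.7 (SD, n = 23), from 6% in right 9 over a median of 39.5% to 83.5% in left 4. CAMK2A stood at 75.7% ± 13 (SD, n = 23), from 24.3% in right 9 to 89.4% in left 4. Left 4 was highest and right 9 lowest in all 3 genes, but these extremes rest on unequal numbers of positions. Left 4 had 31 of the 51 positions in RBFOX3, 4 of 4 in ENO2 and 1 of 3 in CAMK2A. Right 9 had 35, 4 and 2, and left 3 had 30, 1 and 1. Without left 3 and right 9 the levels were 47.3% ± 3.36 in RBFOX3, 45.2% ± 16.5 in ENO2 and 77.5% ± 6.47 in CAMK2A (SD, n = 21). Left 4 was also highest, at 56.3%, in the mean over the 57684 partial positions outside the genes, where monkeys ran from 49.5% upwards with a mean of 53% ± 2.13 (SD, n = 23).

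**Figure D4:**
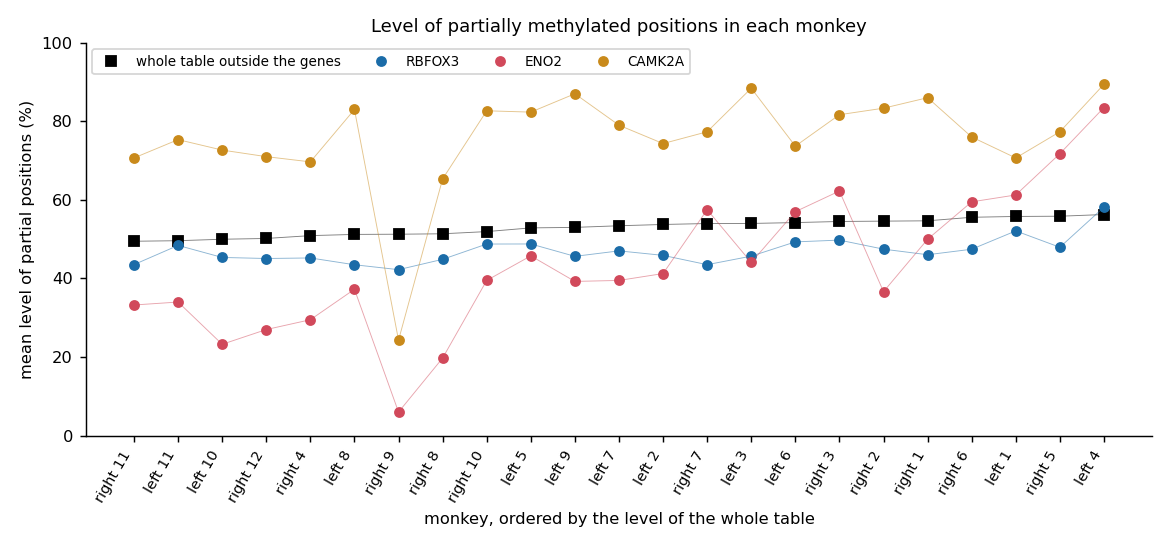
Mean level of the partial positions (percent) in each of 23 monkeys, for RBFOX3, ENO2 and CAMK2A and for all partial positions of the table outside the 5 genes (squares). Monkeys are ordered by the level of the table. ENO2 climbs from left to right with a dip at right 9, while RBFOX3 stays between 42.2% and 58.2%.

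RBFOX3 and ENO2 rose and fell together. Over 23 monkeys Pearson r was 0.728 (permutation p = 0.0001, adjusted p = 0.0003) and Spearman rho 0.683 (permutation p = 0.00038, adjusted p = 0.00114), 2-sided and adjusted by the Benjamini-Hochberg method over the 3 pairs of genes. Without left 4 and left 1, the monkeys farthest from the median of RBFOX3, r was 0.578. Within the 12 monkeys whose identifiers start with r it was 0.651 and within the 11 starting with B it was 0.843. Without left 3 and right 9 it was 0.697 (permutation p = 0.00063), and without left 4 alone 0.619 (permutation p = 0.00179). ENO2 and CAMK2A had r = 0.586 (permutation p = 0.00335, adjusted p = 0.00502) and rho = 0.489 (permutation p = 0.0191, adjusted p = 0.0286). That relation rests on the ends: without left 4 and right 9, the monkeys farthest from the median of ENO2, r was 0.283. It was 0.655 within the r and 0.522 within the B identifiers, and without left 3 and right 9 it was 0.455 (permutation p = 0.0372, adjusted p = 0.0558). RBFOX3 and CAMK2A did not pass the test, with r = 0.418 (permutation p = 0.0541) and rho = 0.351 (permutation p = 0.101). Single monkeys decided this call: it passed without left 1, left 3 or left 8 (permutation p = 0.0473, 0.0499 and 0.0488). Their r was 0.483 without left 4 and left 1, 0.546 and 0.486 within the r and B identifiers, and 0.379 without left 3 and right 9.

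The partial level of the whole table moved with ENO2 and RBFOX3, while its relation to CAMK2A did not pass after adjustment. These relations were computed after the values of the genes were seen. The partial level outside the genes correlated with ENO2 at r = 0.817 (permutation p = 1e-05, the smallest these permutations can give, adjusted p = 6e-05) and rho = 0.848 (permutation p = 1e-05, adjusted p = 6e-05), n = 23. Without right 11 and left 11, the monkeys farthest from the median of that level, r was 0.859, and within the r and B identifiers it was 0.865 and 0.807. With RBFOX3 it gave r = 0.582 (permutation p = 0.00219, adjusted p = 0.00657) and rho = 0.601 (permutation p = 0.00306, adjusted p = 0.00918), 0.633 without right 11 and left 11, and 0.513 and 0.697 within the r and B identifiers. With CAMK2A it gave r = 0.37 (permutation p = 0.0696, adjusted p = 0.139) and rho = 0.456 (permutation p = 0.0305, adjusted p = 0.061), 0.391 without right 11 and left 11, and 0.45 and 0.377 within the r and B identifiers. The share of missing values gave r between -0.0939 and -0.0401 with the 3 genes (permutation p from 0.577 to 0.836) and rho between -0.269 and -0.134 (permutation p from 0.212 to 0.54), and these 6 relations were adjusted together (adjusted p from 0.803 to 0.836 for r and from 0.318 to 0.54 for rho). Without left 3 and right 9, which are also the farthest in that share, r ran from -0.044 to 0.306. Within the B identifiers RBFOX3, ENO2 and CAMK2A gave r = 0.665, 0.559 and 0.354 with missing values, and within the r identifiers -0.327, -0.265 and -0.107. After the level of the table was regressed out, RBFOX3 and ENO2 gave r = 0.54 (permutation p = 0.00902), and 0.475 without left 3 and right 9 (permutation p = 0.0302).

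The size of the co-variation differed between genes. The slope per point of the table's partial level was 6.8 points in ENO2, 2.25 in CAMK2A and 0.923 in RBFOX3, each given without an error. The CAMK2A slope belongs to a relation that did not pass after adjustment. It includes right 9, at 24.3% with 2 of 3 positions. Among the 57684 partial positions outside the genes, the median r with the level of the table was 0.165, and 68.3% of the positions had r above 0. The 3 distal ENO2 positions stood far out in that distribution: 7031943 had r = 0.843, exceeded by 0.307% of the table's partial positions, 7031984 had r = 0.84, exceeded by 0.338%, and 7031930 had r = 0.805, exceeded by 0.768%. Without left 3 and right 9 these shares were 0.199%, 0.468% and 1.37%. The fourth, 7026279, had r = 0.487, exceeded by 16%. The 51 RBFOX3 positions had a median r of 0.15, close to that of the table, and 33 were above 0. Its top position, 77092717, had r = 0.691, and averaged 46.95% beside 2.81% at 77092718, 1 bp away. These correlations over positions are a description. The positions share the libraries and their depth, and each r is over 20 to 23 monkeys.

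**Figure D5:**
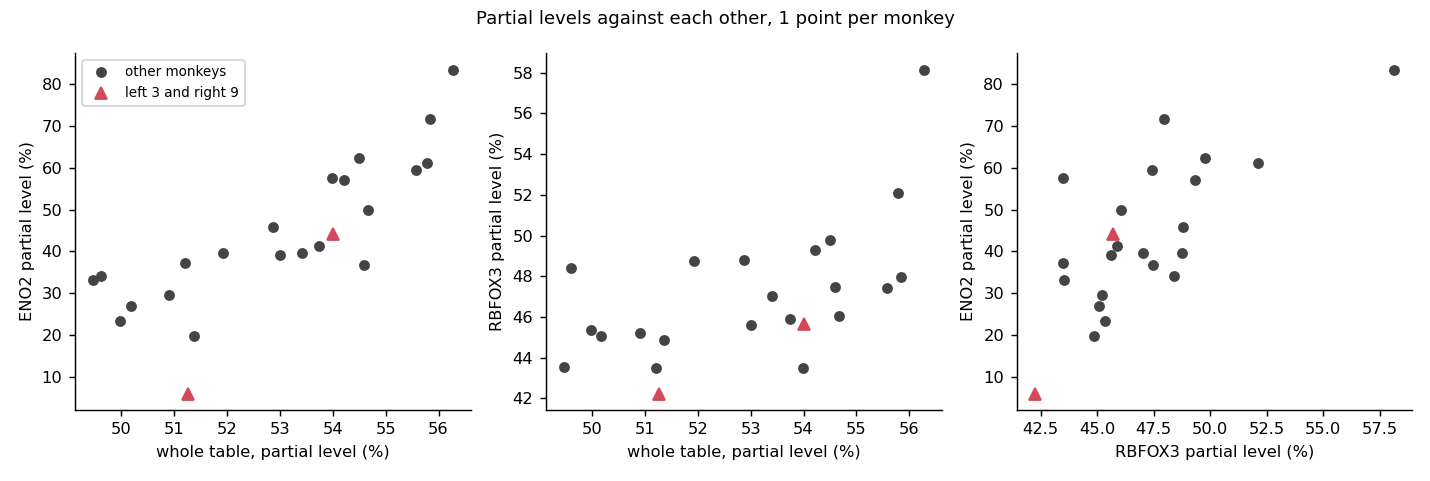
Partial levels (percent) against each other, 1 point per monkey: ENO2 and RBFOX3 against the partial positions of the table outside the genes (left and middle) and ENO2 against RBFOX3 (right). Triangles mark left 3 and right 9. r was 0.817, 0.582 and 0.728 over the 23 monkeys.

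Between single positions of RBFOX3 and ENO2 the mean r was lower than the r between the means of these genes. Among pairs of RBFOX3 positions over 1 kb apart, with values in the 21 monkeys other than left 3 and right 9, the mean r was 0.0536 over 164 pairs, beside 0.0344 over all pairs of 36445 such positions of the table. Within 1 kb it was 0.22 over 46 pairs, beside 0.33 over 199246 pairs in the table. Between RBFOX3 and ENO2 it was 0.226 over 63 pairs. The 3 distal ENO2 positions had a mean r of 0.906, and with 1 position of CAMK2A they had a mean r of 0.55 over 3 pairs.

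The design relates methylation to the temperament score and adjusts for age. No tested position of the 5 genes was called for the score, which does not show that the levels are unrelated to it. Of the 339 positions 289 had values in at least 20 monkeys, and 151 of these had a range over monkeys of at least 10 points and were tested in the fit over the whole table. With limma 0 of the 151 passed for the score at an adjusted p under 0.05, where 0% of the 192151 positions of the table did. At an unadjusted p under 0.05 there were 4 (2.65%), beside 3.12% of the table. The smallest p for the score was at RBFOX3 77111880, where the level differed by 7.96 ± 2.72 points for each unit of the score (SE, n = 21; limma p = 0.00758, adjusted p = 1). That position averaged 73.5%, beside 1.9% at 77111879, 1 bp away. The smallest in ENO2 was at 7032097, with 2.02 ± 0.89 points (SE, n = 22; limma p = 0.033, adjusted p = 1). In CAMK2A, SNAP25 and NEFL the leading positions were 149602615, 10243728 and 24815530, with slopes of 2.29 ± 1.14, -5.4 ± 3.37 and 1.65 ± 0.906 points per score unit and a limma adjusted p of 1 each. The partial levels had slopes of 0.166 ± 0.89 in RBFOX3, 0.791 ± 5.11 in ENO2 and -0.849 ± 3.93 in CAMK2A (points per score unit, SE, n = 23), each smaller than its error. Runs gave the same picture, with 0 of 19 called for the score (0% of 21254 in the table) and 0 at an unadjusted p under 0.05 (3.2% in the table).

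For age 0 of the 151 positions were called, where 0.0531% of the table was, and 7 (4.64%) had an unadjusted p under 0.05, beside 4.06%. The leading one was RBFOX3 77179887, in the unmethylated run, at 7.98 ± 3.18 points for each year of age (SE, n = 21, adjusted p = 1 in limma). In CAMK2A it was 149636147 with 6.6 ± 3.03, and in ENO2 7031930 with 28.4 ± 17.7 points (SE, n = 22, adjusted p = 1 in limma). The CAMK2A position averaged 3.48%, beside 76% at 149636146, 1 bp away. In NEFL and SNAP25 the leading positions were 24815530 and 10198956, with 3.59 ± 3.06 and 3.02 ± 2.93. Of the runs 0 of 19 were called (0.0565% in the table), and 1 had an unadjusted p under 0.05 (4.81% in the table): the RBFOX3 run of 14 positions, with 10.6 ± 5.04 points for each year (SE, n = 23, adjusted p = 0.999 in limma). Without left 3 and right 9, or without left 1, the oldest monkey, that count was 0. At positions, 0 of the table were called for age without left 1, and also 0 on the logit scale. Without left 1, 10 of 150 positions of the genes (6.67%) had an unadjusted p under 0.05, beside 3.52% of the table. The partial level of RBFOX3 had an age slope of 7.69 ± 3 points per year (SE, n = 23), and of 10.1 ± 5.06 without left 1 (n = 22). For ENO2 these slopes were 25.5 ± 17.2 and 31.3 ± 29.2, and for CAMK2A 2.6 ± 13.2 and 17.6 ± 22.1.

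Between hemispheres 0 of the 151 positions were called (0% of the table), and 6 (3.97%) had an unadjusted p under 0.05, beside 3.48%. Without left 3 and right 9 there were 12 of 164 (7.32%), beside 3.87% of the table in that fit. The leading position was CAMK2A 149602612, with 8.62 ± 3.17 points more in right samples (SE, n = 21; limma adjusted p = 0.93). That position averaged 83.9%, beside 2.67% at 149602613, 1 bp away. In RBFOX3 the leading position was 77111726, with -10.6 ± 4.62 points (SE, n = 20; limma adjusted p = 0.93). The leading positions of ENO2, SNAP25 and NEFL, 7023303, 10243698 and 24813554, had -3.23 ± 1.67, -3.76 ± 2.69 and -2.35 ± 1.69 points. Of the runs 0 of 19 were called (0% in the table) and 0 had an unadjusted p under 0.05 (3.12% in the table). The partial level of RBFOX3 was 48.2% ± 4.07 (SD, n = 11) on the left, from 43.5% to 58.2%, and 46% ± 2.31 (SD, n = 12) on the right, from 42.2% to 49.8%. That of ENO2 was 46% ± 16.2 and 41.1% ± 19.5, and that of CAMK2A 79.6% ± 6.76 and 72.1% ± 16.3 (SD, same n). The gap in CAMK2A was smaller without left 3 and right 9, where the levels were 78.7% ± 6.43 (SD, n = 10) on the left and 76.5% ± 6.63 (SD, n = 11) on the right. For ENO2 they were then 46.2% ± 17 and 44.2% ± 16.8, and for RBFOX3 48.4% ± 4.2 and 46.3% ± 2.09. The hemispheres overlapped in all 3 genes.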

How the data were processed

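The authors deposited 1 table of methylation levels, each a fraction between 0 and 1 rounded to 2 decimals, and it was multiplied by 100 here. Per the submitters' processing notes, Bismark 0.11.1 and the build hg19 were used. That build is human while the samples are rhesus, and sequence differences between both were not checked. Strand handling and coverage filters remain not given in the sources used here. Read depth is unknown, so no coverage minimum could be tried. P-values rest on the spread between libraries, 1 per monkey, which holds both differences between monkeys and measurement error. Members and lists were chosen with earlier results of these data known. The ends where genes start follow the known direction of each gene, without an annotation.

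Positions measured in 20 or more monkeys whose levels spanned 10 points or more were fitted over the whole table with limma 3.58.1 in R 4.3.3 (variance trend on the mean), with score and age, and hemisphere added for that comparison. Runs needed a range of at least 5 points. Missing values were left out. P-values were adjusted by Benjamini-Hochberg over every unit tested. Correlations used 100000 permutations (2-sided) in Python 3.11.15 with numpy 2.4.6. The scripts that compute statistics were tested on simulated data.

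Named were all 5 genes. Within each the largest runs, the run nearest 50%, the position of largest SD and those of smallest p were chosen by rule, and of these the most informative are given. Strand pairs, relations to the level of the whole table, and positions and runs singled out beyond that were chosen after their values were seen. Each library is a separate monkey. No paired samples exist. Alternatives covered scale, filters, libraries, covariates, strands, class limits and windows.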

Additional observations from a re-analysis of the deposited data

How the results depend on the processing

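No position or run of the 5 genes was called for score, age or hemisphere by limma under any alternative run. The correlation of RBFOX3 and ENO2 passed the permutation test in all 8 alternatives that gave a value, with r from 0.475 to 0.843, and ran from 0.619 (without left 4) to 0.8 (without right 7) with single monkeys left out. Its lowest value, with the table's level regressed out and without left 3 and right 9 (chosen after seeing the data), had permutation p = 0.0302. That of ENO2 and CAMK2A no longer passed in 5 of 8: r was 0.0239 over all positions, 0.186 with means between 10% and 90%, 0.236 with positions 1 bp apart merged, 0.522 within the B identifiers, and 0.182 with the level of the table regressed out and without left 3 and right 9. It ran from 0.422 (without right 9) to 0.622 with single monkeys left out. The passes counted here for pairs of genes rest on an unadjusted permutation p under 0.05. Without left 3 and right 9, ENO2 and CAMK2A had permutation p = 0.0372 but adjusted p = 0.0558. RBFOX3 and CAMK2A passed in 0 of 8, and ran from 0.317 (without right 9) to 0.473, passing without left 1, left 3 or left 8. Leaving out positions with an SD above 20 points or with missing values left ENO2 or CAMK2A with fewer than 3 positions, so these were not run for pairs. Partial positions in SNAP25 numbered 4 with limits of 10% and 90%, and in CAMK2A 23, and 1 with limits of 30% and 70%. The start window of ENO2 averaged 8.87% with 8 kb, where 7026278 and the partial position 7026279 entered. That of NEFL averaged 3.38% with 4 kb, where its run of 42 positions fell outside. The cause of the other moves was not tested. Counts of member positions at an unadjusted p under 0.05 moved between fits. For the score they were 9 with no range filter, 2 with hemisphere as covariate and 0 with complete positions. For age they were 4 on the logit scale, 4 with a range of at least 20 points, 0 with complete positions and 10 without left 1 (6.67%, beside 3.52% of the table). For hemisphere they were 3 on the logit scale, 3 with complete positions and 12 without left 3 and right 9 (7.32%, beside 3.87% of the table). No paired analysis was possible because left and right samples came from different monkeys, whose numbers are only names. Depth is unknown and limits every single value.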
